A study of Medicago sativa with 86 samples.

Results

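The 80 genes described here were leaf genes with more messenger RNA, on average, in alfalfa plants with ineffective than with effective nitrogen fixation. They were so in both cultivars and at both CO2 levels. They were chosen from 16039 gene identifiers with a mean of at least 2 CPM, the read count relative to its library's total, over 85 libraries, out of 49095 identifiers in the count table. For each gene, the mean of log2(CPM + 1) in ineffective plants minus that in effective plants was taken in each of the 4 combinations of cultivar and CO2 level, with the 3 nitrate levels weighted equally. The 80 genes with the largest minimum over these 4 differences form the list. The differences between ineffective and effective plants therefore chose the genes, and they are given below as a description, without a test.

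Alfalfa (*Medicago sativa*) forms root nodules in which rhizobia turn atmospheric nitrogen into ammonium in exchange for plant carbon. Where nodules are ineffective, a plant depends on nitrogen from the soil, here the nitrate it was fed. Elevated CO2 raises the supply of carbon and commonly lowers the nitrogen content of leaves, which is the background to the question that the title of the series asks about carbon and nitrogen balance. Alfalfa is an outcrossing polyploid, so plants of 1 cultivar can carry different alleles of the same gene.

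All libraries were made from leaves of rhizobium-inoculated plants, from polyadenylated RNA with a stranded kit. Ineffective plants gave 42 libraries and effective plants 43, in the cultivars Saranac and Agate. Plants received 6, 10 or 16 mM KNO3 in Hoagland solution each week and grew at 600 ppm CO2 or at 420 ppm, the ambient level. This made 24 groups, 11 with 3 libraries and 13 with 4. Whether ineffective plants carried another plant genotype or another rhizobium is not stated, nor is whether a library holds 1 plant. P-values therefore cover only the spread from library to library, which may be technical. Each CO2 level had chambers of its own, so CO2 and chamber cannot be told apart. In whole leaves, fewer cells of a type and less RNA per cell cannot be told apart either.

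Total counts were 15408689 to 25910031 in ineffective libraries (median 18835666) and 13543807 to 25279913 in effective libraries (median 20644503). The identifiers are not paired with gene names in the sources used here, since 0 of 49095 matched the reference gene table of the assembly Bolivia_mono. The genes are therefore given by identifier, with no role. Genes that share reads with a near-identical copy or overlap another gene are uncertain, because the counting settings are not given.

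A pair of Agate libraries at 10 mM and 420 ppm stood nearer to the other class in the mean level of the 80 genes. The mean level is the average over the 80 genes of log2(CPM + 1) minus that gene's mean over all libraries. In this group of conditions it was 0.494, 0.0482 and -0.418 in ineffective replicates 1, 3 and 4, against -1.14, -1.04 and -0.132 in effective replicates 1, 2 and 3. Ineffective replicate 4 thus lay below effective replicate 3, and this was the only 1 of the 12 combinations of cultivar, CO2 and nitrate in which the classes overlapped. Without these 2 libraries the rule kept 39 of the 80 genes, and all 80 had a positive difference in all 4 cultivar and CO2 combinations. Most of these values also chose the genes, so the signs are given as a description.

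**Figure D1:**
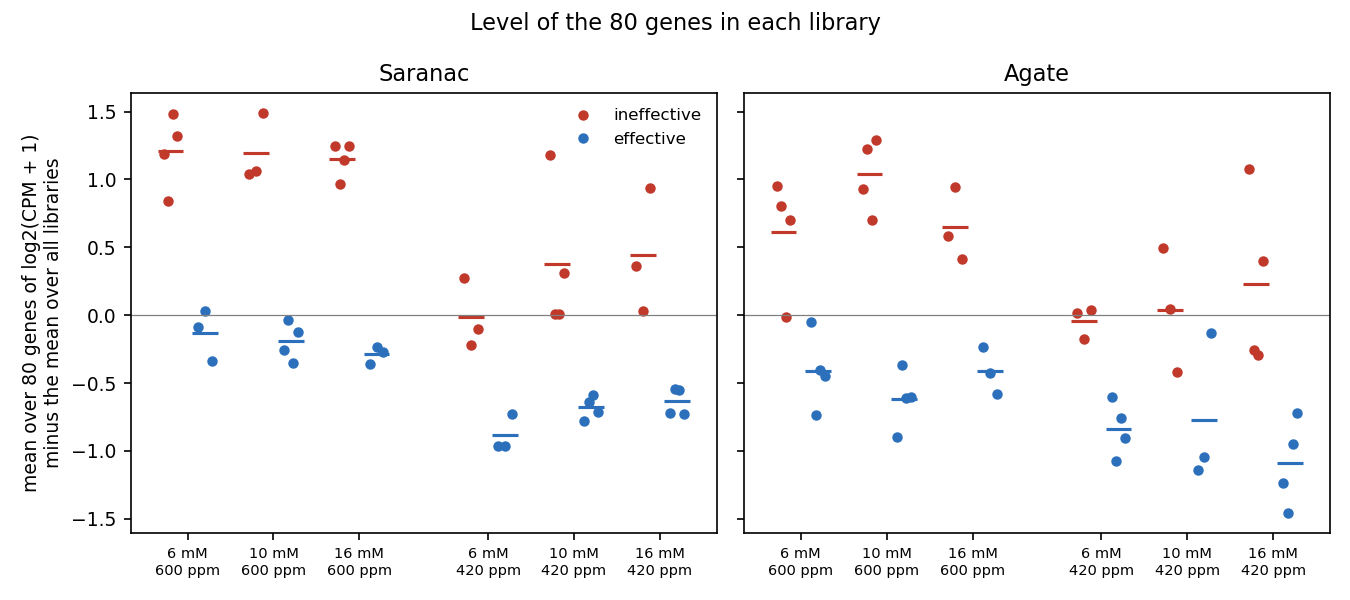
Mean level of the 80 genes in each library (points) and its group mean (bars), as the average over genes of log2(CPM + 1) minus the gene's mean over all libraries, by cultivar, CO2 level and nitrate. Ineffective libraries (red) lie above 0 in 35 of 42 cases and effective libraries (blue) in 1 of 43.

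The mean level differed between classes by about the same amount in both cultivars, and within each class it was higher at 600 ppm. This level is on plain CPM, on which the median over all genes was also higher at 600 ppm, by 0.21 to 0.30. In Saranac at 600 ppm it ran from 0.845 to 1.49 in ineffective libraries with a median of 1.19, against -0.357 to 0.0345 with a median of -0.25 in effective libraries. In Saranac at 420 ppm it was -0.216 to 1.18 (median 0.154) in ineffective and -0.964 to -0.542 (median -0.721) in effective libraries. The classes overlapped at neither CO2 level in Saranac. In Agate at 600 ppm the level was -0.0122 to 1.29 (median 0.801) in ineffective libraries, against -0.899 to -0.0523 (median -0.445) in effective libraries. In Agate at 420 ppm it was -0.418 to 1.08 (median 0.0268) in ineffective and -1.46 to -0.132 (median -0.946) in effective libraries. The Agate classes therefore overlapped at 420 ppm. Ineffective libraries at 420 ppm spread more widely than those at 600 ppm, with an SD of 0.453 in both cultivars, against 0.202 in Saranac and 0.368 in Agate at 600 ppm.

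Across the 80 genes the difference between ineffective and effective plants was moderate in most and large in a few. In Saranac at 600 ppm it was 0.48 to 4.22 with a median of 1.11 on the log2(CPM + 1) scale, which understates the change of low genes. In Saranac at 420 ppm it was 0.49 to 2.69 with a median of 0.89. In Agate it was 0.48 to 4.46 (median 1.06) at 600 ppm and 0.47 to 3.12 (median 0.86) at 420 ppm. The median over all 16039 genes was between 0.00 and 0.11 in the 4 combinations. A difference above 1 was seen in 50 of the 80 genes in Saranac at 600 ppm and in 31 at 420 ppm, and in Agate in 42 at 600 ppm and in 29 at 420 ppm. The ratio of mean CPM, ineffective over effective, had a median of 2.36 and reached at least 2 in 59 genes and at least 4 in 12.

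The difference was larger at 600 than at 420 ppm in 51 of the 80 genes in Saranac and in 53 in Agate, and 36 genes showed this in both cultivars. The corresponding shares of all genes were 57.2% and 57.1%. The smallest of the 4 differences fell in Saranac at 600 ppm for 16 genes and at 420 ppm for 25, and in Agate at 600 ppm for 16 and at 420 ppm for 23. The size of the difference thus varied within a gene. Of all 16039 genes, 2588 were higher in ineffective plants in all 4 combinations and 1216 were lower, and 10 exceeded a log2 difference of 1 in each.

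**Figure D2:**
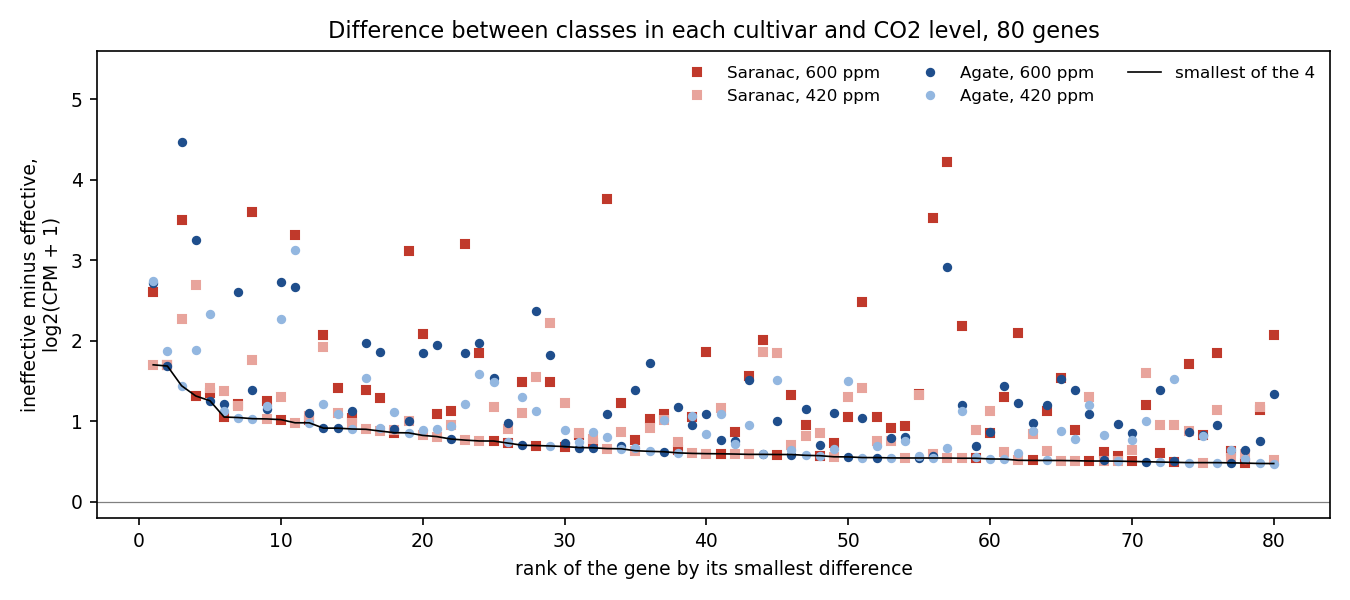
Ineffective minus effective difference of each of the 80 genes in mean log2(CPM + 1), by the rank of its smallest difference, in Saranac (squares) and Agate (circles) at 600 ppm (dark) and 420 ppm (pale). The line follows the smallest difference, from 1.70 at rank 1 to 0.47 at rank 80, and single differences reach 4.46.

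The choice at the lower end was close. The genes last inside were MsG0380017940.01, MsG0880045672.01 and MsG0580025674.01, with minimum differences of 0.479, 0.475 and 0.474. The first outside were MsG0780039063.01, MsG0780038925.01 and MsG0180000008.01, with 0.473, 0.472 and 0.467. Membership near rank 80 is therefore a matter of the third decimal.

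Single libraries of the classes overlapped for nearly all of the 80 genes, so the list is higher in ineffective plants as a matter of means and not in every library. Over the 3 nitrate levels pooled, only MsG0480022611.01 had every ineffective library above every effective one in Saranac at 420 ppm (0.0374% of all genes did), and only MsG0580030016.01 did in Agate at 600 ppm (0.0998%). None of the 80 did in Saranac at 600 ppm (1.2% of all genes) or in Agate at 420 ppm (0.00623%). Within a nitrate level the groups hold 3 or 4 libraries a side and separate more easily. In Saranac at 600 ppm, 24, 26 and 26 genes did not overlap at 6, 10 and 16 mM, beside 11.4%, 10.9% and 15.2% of all genes. In Saranac at 420 ppm these counts were 19, 14 and 11, beside 5.01%, 2.09% and 4.73%. In Agate at 600 ppm they were 12, 27 and 19, beside 5.13%, 13.2% and 5.11%, and at 420 ppm 11, 10 and 15, beside 3.82%, 2.35% and 4.93%. Since the same values chose the genes, nothing is read from these counts. Taking group means, 35 of the 80 genes were higher in ineffective plants in all 12 combinations of cultivar, CO2 and nitrate, 29 in 11, 11 in 10 and 5 in 9.

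The leading gene, MsG0080048389.01, was near 0 in some libraries and well expressed in others. It had 0.0512 to 173 CPM in ineffective libraries with a median of 61.2, against 0 to 69.5 CPM with a median of 21.4 in effective libraries. It was under 1 CPM in 2 of 42 ineffective and 16 of 43 effective libraries, and 11 of those 16 were among the 22 effective Agate libraries. Where it was above 1 CPM, the classes overlapped over much of their range.

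MsG0880047172.01 had the same form. It ran from 0.205 to 75 CPM (median 32.1) in ineffective and from 0.0436 to 65.9 CPM (median 14.3) in effective libraries, and was under 1 CPM in 4 ineffective and 16 effective libraries. MsG0780039352.01 also ranged widely, from 0 to 309 CPM (median 6.59) in ineffective libraries, against 0 to 178 CPM (median 0.0975) in effective libraries. In ineffective plants its median was 82.4 CPM at 600 ppm and 4.14 CPM at 420 ppm in Saranac, and 90.9 and 2.13 CPM in Agate. Effective plants had a median under 1 CPM in all 4 combinations. In the test of CO2 described below, over both classes, its log2 fold change was 1.67 ± 0.81 (SE). It was not called (edgeR adjusted p = 0.094).

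MsG0680032702.01 showed a shift of the whole distribution instead. Its CPM was 1.99 to 35.4 in ineffective libraries with a median of 12.8, and 0.214 to 13.8 in effective libraries with a median of 3.54. Of the 42 ineffective libraries, 41 lay above the effective median, and 1 effective library lay above the ineffective median. Its line medians were 14.2 and 12.2 CPM in ineffective Saranac and 10.6 and 12.8 CPM in ineffective Agate at 600 and 420 ppm, and it was not called for CO2.

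**Figure D3:**
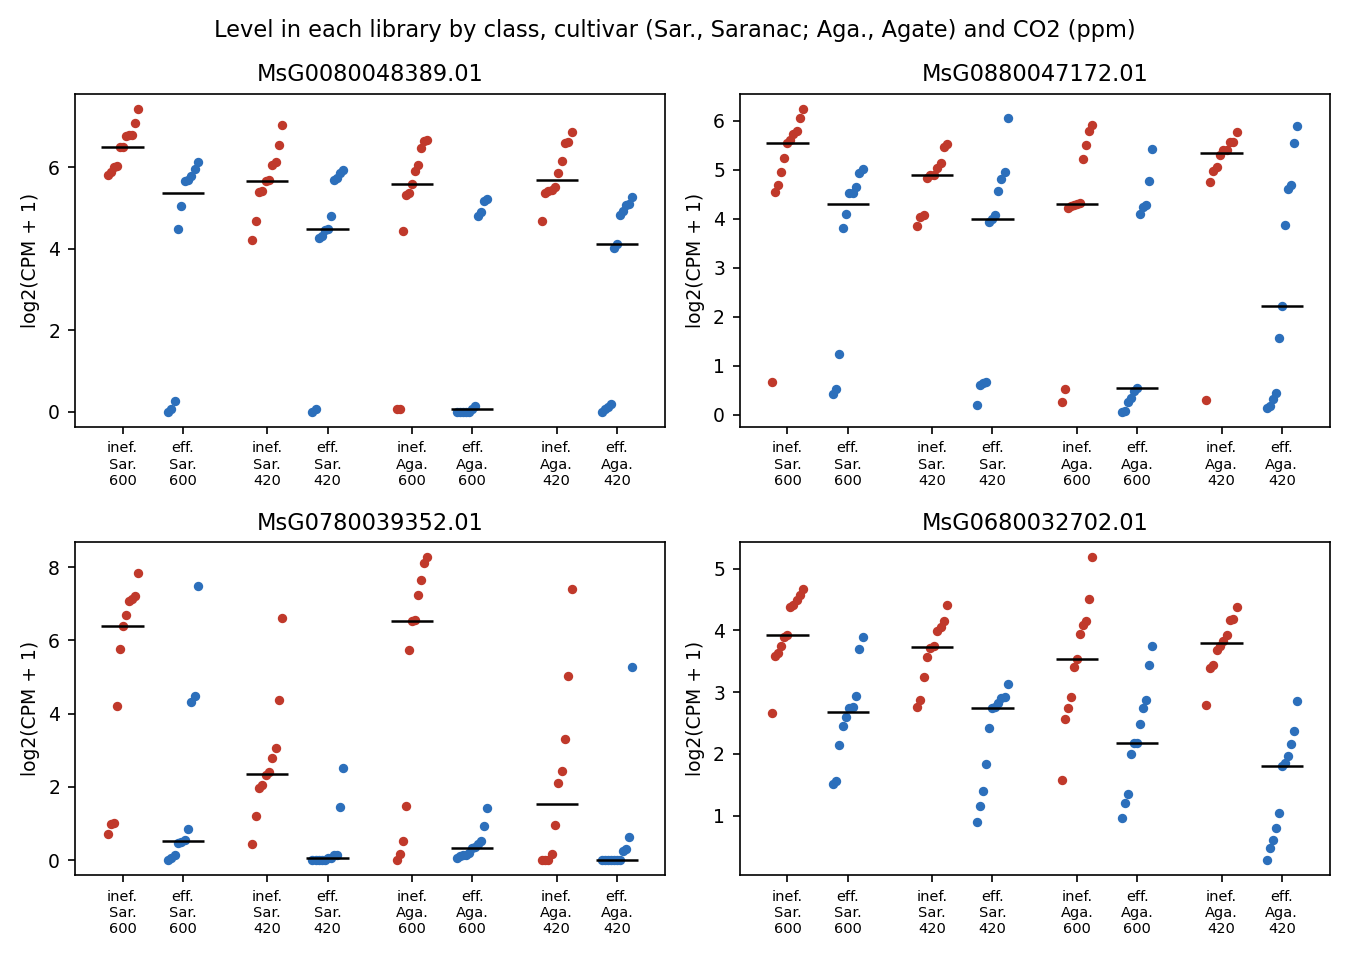
Level in each library as log2(CPM + 1) for 4 of the 5 leading genes, by class (red, ineffective; blue, effective), cultivar and CO2 level, with medians as black lines. In MsG0080048389.01 and MsG0880047172.01 the libraries fall into a low and a high set, MsG0780039352.01 spreads from 0 to 309 CPM, and MsG0680032702.01 shifts as a whole.

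The other 6 of the 10 leading genes were MsG0680035721.01, MsG0680032726.01, MsG0780038684.01, MsG0880044857.01, MsG0780037343.01 and MsG0680031977.01, with minimum differences of 1.31 down to 1.02. MsG0680035721.01 had 0.154 to 956 CPM (median 39.5) in ineffective and 0.300 to 415 CPM (median 5.02) in effective libraries. MsG0780037343.01 was the most even of them, with 14.7 to 360 CPM (median 124) in ineffective and 3.92 to 130 CPM (median 52.8) in effective libraries, and it was never under 1 CPM. The highest values of both genes were in ineffective libraries, and the ranges overlapped.

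Low or missing counts were more frequent in effective plants. Genes chosen for higher levels in ineffective plants tend to this, so these counts are given as a description. A count was present in every ineffective library for 64 of the 80 genes and in every effective library for 54. Values under 1 CPM were more frequent in effective than in ineffective libraries for 56 genes and less frequent for 0, and 22 genes never fell under 1 CPM. The genes with the fewest effective libraries holding a count were MsG0280010934.01 (12 of 43), MsG0880044857.01 (15), MsG0580030016.01 (19), MsG0180001453.01 (26) and MsG0780039352.01 (30). In ineffective plants they held a count in 36, 35, 36, 33 and 38 of 42 libraries. A count of 0 allows up to 0.116 to 0.222 CPM, depending on the library, for counting error only.

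MsG0580030016.01 was the gene whose classes did not overlap in Agate at 600 ppm. There it had 0.873 to 20.6 CPM (median 6.84) in the 11 ineffective libraries, against 0 to 0.110 CPM (median 0) in the 11 effective libraries. In Saranac at 420 ppm the difference was less clear, with 0 to 29.8 CPM (median 12.5) in ineffective and 0 to 19.6 CPM (median 1.95) in effective libraries. The largest ratio of means, 32.5, belonged to MsG0180001453.01, for which 1 ineffective library with 138 CPM held 68.6% of the ineffective total. Its median was 0.125 CPM in ineffective and 0.0474 CPM in effective libraries. MsG0480022753.01 also owed 66.5% of its ineffective total to 1 library.

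The list was of ordinary abundance. Its median of the mean CPM was 11.4, against 15.3 for all 16039 genes, and 36 of the 80 genes (45%) were under 10 CPM, against 38.3% of all genes. The most abundant were MsG0480018573.01, MsG0780041642.01, MsG0380012002.01, MsG0780038911.01 and MsG0580025674.01, with means of 887, 372, 169, 151 and 141 CPM. MsG0480018573.01 had 115 to 7364 CPM (median 720) in ineffective and 14.5 to 2702 CPM (median 369) in effective libraries. Its classes were furthest apart in Saranac at 600 ppm, where ineffective plants had a median of 1467 CPM and effective plants 126 CPM. In Agate at 420 ppm the medians were 542 and 411 CPM in ineffective and effective plants, with ranges that overlapped almost fully.

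Library composition moved with the class. The 100 most abundant genes took 25.1 ± 2.24% of the counts in ineffective and 33.4 ± 3.68% in effective Saranac at 600 ppm (SD, n = 11 and 10), and 26.2 ± 4.05% and 32.1 ± 3.83% in Agate (n = 11 each). At 420 ppm these shares were 38.6 ± 6.39% and 41.6 ± 0.692% in Saranac (n = 10 and 11), and 37.2 ± 7.52% and 40.6 ± 5.09% in Agate (n = 10 and 11). With CPM on library sizes scaled by the trimmed mean of M values (TMM), all 80 genes were still higher in ineffective plants in all 4 combinations. Median differences were 1.02 and 0.90 in Saranac and 0.95 and 0.83 in Agate at 600 and 420 ppm. The median over all genes was between -0.003 and 0.011 with this scaling, against 0.004 to 0.107 on plain CPM. That shift is smaller than 0.474, the smallest difference of the list, so the choice of genes nearly fixed this outcome. With this scaling the rule kept 69 of the 80.

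The rule was also applied without each replicate number and its choice read in the libraries left out. Genes chosen without replicate 1 were higher in ineffective plants in 80 of 80 cases, with a median difference of 0.77 over 9 combinations of conditions, against 66.2% of all genes. Genes chosen without replicate 2 were higher in 72 of 80 (median 0.76; 61.5% of all genes), and those chosen without replicate 4 in 79 of 80 (median 1.00; 62.3%). Genes chosen without replicate 3 were higher in 59 of 80, with a median of 0.47, against 49.96% of all genes. The difference thus recurred in the libraries left out, and least in those numbered 3. The genes were read in the same few libraries and are not independent cases. Whether these libraries are independent of those that chose the genes is not known, so this is a description.

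Responses to CO2, cultivar and nitrate were tested in 8 contrasts, of which 6 average over the classes. The other 2 compare the difference between classes at 6 or 10 mM with that at 16 mM, whereas the rule used the mean of that difference over the nitrate levels. Each used the quasi-likelihood F-test of edgeR on the counts of all 24386 genes kept, with Benjamini-Hochberg adjustment, and a gene with an adjusted p under 0.05 is called changed. All 80 genes were tested. Of them, 42 changed in at least 1 of the contrasts, beside 53.2% of all genes tested, and 38 in none. The genes tested also include genes with a mean under 2 CPM, which the list could not hold. Shares and medians of all genes tested, here and below, are therefore not matched to the list in abundance. How far this moves them was not tested. Groups are averaged on the log scale, so for genes near 0 in some groups a log2 fold change can exceed the ratio of the means.

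At 600 against 420 ppm CO2, 26 of the 80 genes rose and 5 fell. That is 32.5% and 6.25% of the list, beside 21.5% and 20.7% of all genes tested, which include genes under the list's minimum of 2 CPM. The median log2 fold change was 0.17 in the list and 0.02 over all genes, and 18 genes rose and 4 fell by more than 1, beside 7% and 4.88% of all genes tested. On plain CPM every comparison with 420 ppm is shifted, because the mean log2 TMM factor was higher by 0.285 at 600 ppm. The median difference of the list on plain CPM was 0.58 in ineffective and 0.37 in effective Saranac, and 0.44 and 0.30 in ineffective and effective Agate, beside 0.29, 0.21, 0.30 and 0.24 over all genes.

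MsG0780037258.01 rose most with CO2. It had 0.15 to 219 CPM (median 36.6) in the 43 libraries at 600 ppm and 0 to 175 CPM (median 0.353) in the 42 at 420 ppm. The log2 fold change was 4.87 ± 0.57 (SE; edgeR adjusted p = 1.7e-10). MsG0380012509.01 had 3.55 to 272 CPM (median 26.5) at 600 ppm, against 0.0444 to 35.5 CPM (median 1.07) at 420 ppm, a log2 fold change of 3.65 ± 0.36 (edgeR adjusted p = 6.3e-13). In both genes the ranges overlapped while the medians were far apart. Its neighbour by identifier, MsG0380012512.01, was also on the list, with medians of 32.5 CPM at 600 ppm and 1.12 CPM at 420 ppm in ineffective Saranac.

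Of the genes that fell, MsG0580030016.01 had 0 to 44.8 CPM (median 0.873) at 600 ppm and 0 to 32.9 CPM (median 2.18) at 420 ppm. Its log2 fold change of -2.69 ± 1.08 (edgeR adjusted p = 0.038) lost its call without the filter on low counts, without the 2 Agate libraries and without any 1 of the 4 replicate numbers, where the adjusted p reached 1.0. MsG0380016722.01 had 0.0939 to 37.1 CPM (median 2.52) at 600 ppm, against 0.127 to 222 CPM (median 10.8) at 420 ppm. It fell by 2.33 ± 0.44 on the log2 scale (edgeR adjusted p = 1.2e-05), and kept its call under every alternative run.

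**Figure D4:**
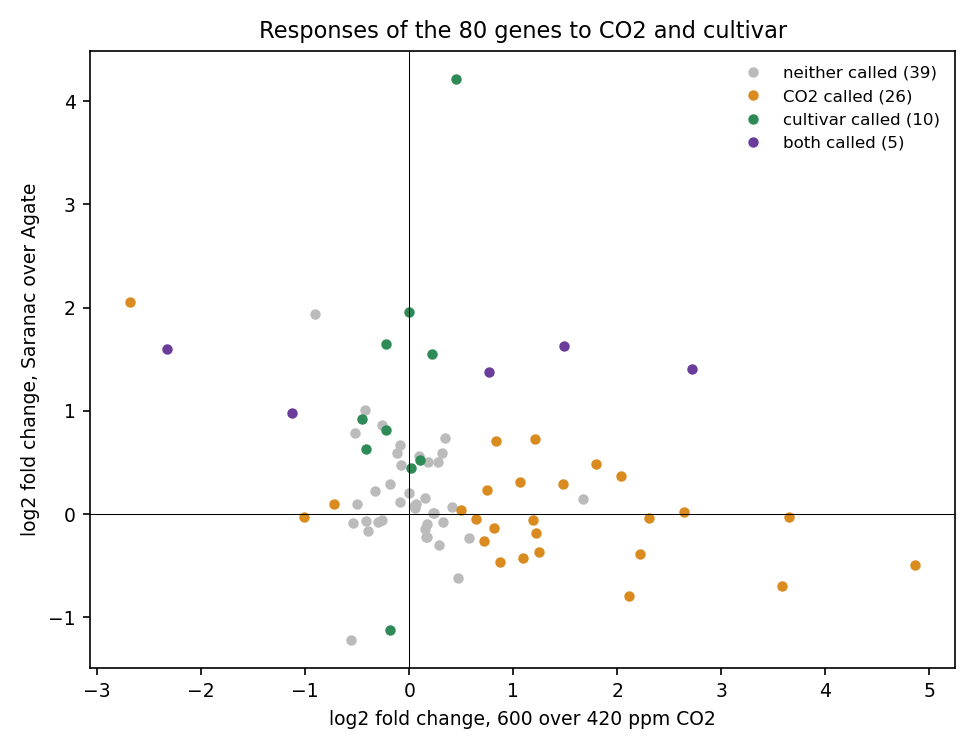
Log2 fold change of each of the 80 genes for 600 over 420 ppm CO2 (horizontal) and for Saranac over Agate (vertical), from the edgeR fit, coloured by which contrast was called at an adjusted p under 0.05. Called genes lie mostly to the right (26 higher, 5 lower at 600 ppm) and above 0 (14 higher, 1 lower in Saranac), and 5 genes were called in both.

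In Saranac against Agate, 14 of the 80 genes were higher and 1 was lower, which is 17.5% and 1.25% of the list beside 7.38% and 8.64% of all genes tested. In all, 8 genes were called without replicate 4 and 23 with the Wald test of DESeq2, against 15 here. Over all genes these counts were 2277, 5074 and 3906. The median log2 fold change was 0.11 in the list and -0.02 over all genes. MsG0280010934.01 had 0 to 16.1 CPM (median 1.46) in 42 Saranac libraries and 0 to 5.98 CPM (median 0) in 43 Agate libraries. It held no count in any of the 11 effective Agate libraries at 600 ppm. The fitted log2 fold change was 4.22 ± 0.69 (edgeR adjusted p = 2.0e-05), and without replicate 4 the adjusted p was 1.0. MsG0680032895.01 had 0 to 47 CPM (median 10.6) in Saranac, against 0 to 30.7 CPM (median 0.911) in Agate, a log2 fold change of 1.96 ± 0.51 (edgeR adjusted p = 0.0045). Its call was lost without replicate 1. MsG0180000415.01, the only gene called lower, had 0.0627 to 25.92 CPM (median 1.32) in Saranac and 0.148 to 42.4 CPM (median 7.60) in Agate. It changed by -1.12 ± 0.37 (edgeR adjusted p = 0.029), a call lost without replicate 1, 2 or 4.

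Nitrate moved few of the genes, as it did over all genes tested. At 6 against 16 mM, 0 of the 80 changed in edgeR, beside 0.41% of all genes (0.0656% higher and 0.344% lower), and DESeq2 called 3. The unadjusted edgeR p was under 0.05 for 4 of the 80, beside 2748 of all 24386 genes. At 10 against 16 mM, 1 of the 80 genes, MsG0780041510.01, rose and 0 fell, beside 0.103% of all genes (0.0656% higher and 0.0369% lower). It had 0 to 97 CPM (median 0.821) at 6 mM, 0 to 289 CPM (median 1.85) at 10 mM and 0 to 74.3 CPM (median 0.444) at 16 mM, and its log2 fold change was 2.98 ± 0.61 (edgeR adjusted p = 0.028). The call was lost without any 1 of the replicate numbers and without the 2 Agate libraries, with an adjusted p of up to 0.415.

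The difference between classes, which chose the genes as its mean over the nitrate levels, is given here by level as a description. Its median over the 80 genes was 0.88 at 6 mM, 1.11 at 10 mM and 1.08 at 16 mM, beside 0.02, 0.06 and 0.12 over all genes, and all 80 were positive at each. It was largest at 6 mM in 15 genes, at 10 mM in 28 and at 16 mM in 37. The mean level of the list had medians of 0.488, 0.816 and 0.761 in ineffective plants at 6, 10 and 16 mM, against -0.667, -0.601 and -0.566 in effective plants. No change of the difference with nitrate was called. Between 6 and 16 mM, edgeR called 0 of the 80 genes and 0% of all genes, and DESeq2 called 1 of the 80. The unadjusted edgeR p was under 0.05 for 3 of the 80, beside 2101 of all 24386 genes. Between 10 and 16 mM, edgeR again called 0 of the 80 and 0% of all genes, and DESeq2 called 0 of the 80. Here the unadjusted edgeR p was under 0.05 for 3 of the 80, beside 1095 of all 24386 genes.

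The response to CO2 differed between 6 and 16 mM in 6 of the 80 genes. The log2 fold change for 600 over 420 ppm was higher at 6 than at 16 mM in 5 genes and lower in 1, which is 6.25% and 1.25% of the list beside 2.8% and 0.845% of all genes tested. The median of this difference was 0.49 on the log2 scale in the list and 0.04 over all genes. The count was 1 without replicate 3, 0 without replicate 4, where 0 of all genes were called, and 14 with the Wald test of DESeq2. Over all genes, 187 were called without replicate 3 and 1836 with the Wald test, against 890 here. At 6 mM, MsG0180004941.01 had 1.11 to 608 CPM (median 43.9) at 600 ppm and 0 to 25.6 CPM (median 0.200) at 420 ppm. At 16 mM it had 0.101 to 46.7 CPM (median 4.13) at 600 ppm and 0 to 164 CPM (median 0.527) at 420 ppm. The CO2 levels overlapped at both nitrate levels. The difference of its log2 responses was 7.13 ± 1.53 (edgeR adjusted p = 0.0060).

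MsG0780037258.01 had 12.1 to 219 CPM (median 108) at 600 ppm and 0 to 1.32 CPM (median 0.0791) at 420 ppm at 6 mM, groups that did not overlap. At 16 mM it had 1.81 to 69.2 CPM (median 21.9) at 600 ppm and 0.0519 to 18.2 CPM (median 0.558) at 420 ppm, which overlapped. The difference was 6.21 ± 1.47 (edgeR adjusted p = 0.012). In MsG0480022716.01 the responses ran in opposite directions, with overlapping ranges. At 6 mM it had 0.567 to 5.91 CPM (median 2.68) at 600 ppm and 1.82 to 8.94 CPM (median 3.64) at 420 ppm, and at 16 mM 1.02 to 8.59 CPM (median 4.97) at 600 ppm and 0.312 to 5.06 CPM (median 2.61) at 420 ppm. This difference was -1.14 ± 0.31 (edgeR adjusted p = 0.028). All 3 calls were lost without replicate 4, and those of MsG0180004941.01 and MsG0480022716.01 also without replicate 3. The response to CO2 was called different between Saranac and Agate in 0 of the 80 genes and 0% of all genes by edgeR. DESeq2 called 1 of the 80. The unadjusted edgeR p was under 0.05 for 6 of the 80, beside 1525 of all 24386 genes.

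The identifiers of the list were unevenly spread over the 9 prefixes. MsG04 held 19 of the 80 genes (23.8%, beside 14% of the 16039), MsG06 held 13 (16.3%, beside 6.39%) and MsG05 held 4 (5.0%, beside 11.3%). Numbers rise along each prefix, but what a number stands for on a chromosome was not looked up. Within 20 numbers of another gene of the list lay 11 of the 80, in 4 runs. The mirror of the rule chose 80 genes lower in ineffective plants in all 4 combinations of cultivar and CO2. Among them 22 lay as near to another of their own, and MsG04 held 25, MsG06 8 and MsG05 8. Of the 80 higher genes, 4 had a gene of that lower list within 20 numbers.

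The run with the most genes was MsG0680032702.01, MsG0680032717.01, MsG0680032722.01 and MsG0680032726.01. These were all 4 of the genes with at least 2 CPM among 25 identifiers, and MsG0680032748.01 followed. MsG0680032717.01 had smallest and largest differences of 0.90 and 1.13, and MsG0680032726.01 of 1.05 and 1.37. MsG0680032722.01 was larger in Saranac, at 2.00 and 1.86, than in Agate, at 0.59 and 0.59, at 600 and 420 ppm. Its median in Saranac at 600 ppm was 11.8 CPM in ineffective plants, against 1.44 CPM in effective plants, and in Agate 2.04 CPM in ineffective plants, against 1.21 CPM in effective plants. Library by library within their groups, the levels of the 4 genes correlated at 0.353 to 0.669 with a median of 0.518 over 85 libraries.

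**Figure D5:**
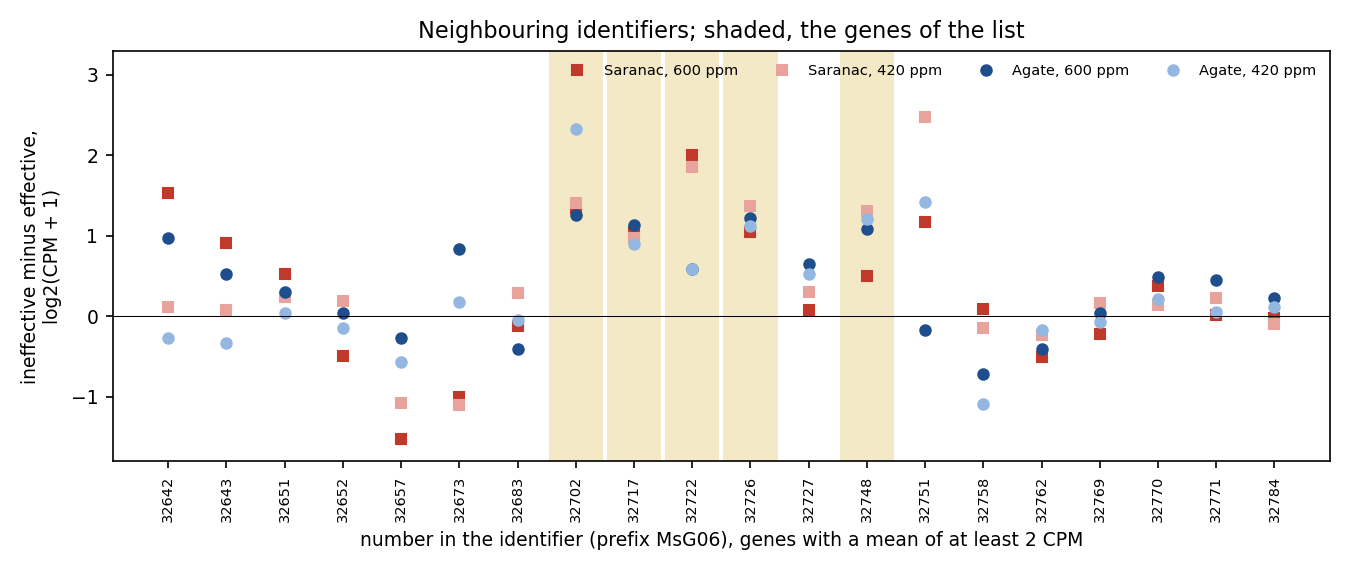
Ineffective minus effective difference in mean log2(CPM + 1) for 20 genes with neighbouring identifiers of the prefix MsG06, in Saranac (squares) and Agate (circles) at 600 ppm (dark) and 420 ppm (pale). The 5 genes of the list (shaded) lie above 0.5 at all 4 points. The rule fixed that none of the other genes does, since the first gene outside the list had a smallest difference of 0.473.

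The other runs held 2 or 3 genes of the list. MsG0780039323.01, MsG0780039338.01 and MsG0780039352.01 were 3 of 8 genes with at least 2 CPM in their stretch, and their within-group correlations ran from 0.242 to 0.792. MsG0380012509.01 and MsG0380012512.01 correlated at 0.471, and MsG0580025659.01 and MsG0580025674.01 at -0.047. Neighbours on the list therefore did not all vary together.

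Within groups most pairs of the 80 genes were weakly correlated, as were pairs of genes in general. The median correlation of the 3160 pairs was 0.043, beside 0.05 over all gene pairs. Of the 3160, 76 pairs (2.41%) exceeded 0.5, beside 1.37% of all gene pairs. These values share libraries and depth and are given as a description. The closest pair was MsG0680032895.01 and MsG0480023394.01, at 0.92. In ineffective plants their medians were 22.0 and 11.7 CPM in Saranac and 9.86 and 4.44 CPM in Agate at 600 ppm, against 6.55 and 4.14 CPM and 0.302 and 0.284 CPM in effective plants. Next came MsG0180000019.01 with MsG0780037258.01, at 0.864, both of which rose with CO2, and MsG0780039323.01 with MsG0780039338.01, at 0.792.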

How the data were processed

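Messenger RNA of alfalfa leaves was sequenced in 86 libraries. The values are the authors' deposited raw counts of reads by gene, from featureCounts per the submitters' processing notes. The version and settings of this counter, the aligner, the genome build and the annotation were not given in the sources used here. CPM was computed as a count over its column total. Groups came from the labels. For 1 library they contradict each other on the class, and it was left out, leaving 85. The genes of the list, the other choices of genes and the tests were chosen with earlier results of these data known.

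Genes were named by rule: the 10 leading genes, 3 on each side of the threshold, the 2 highest and 2 lowest called in each contrast, the 5 most abundant, the 5 with the fewest effective libraries holding a count, runs of identifiers and the 3 closest pairs. MsG0480022753.01, MsG0380012512.01 and MsG0680032748.01 were partly chosen after their values were seen.

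Tests used edgeR 4.0.16 (R 4.3.3; limma 3.58.1) with TMM scaling, robust dispersions and 1 coefficient for each of 24 groups. The filter filterByExpr left 24386 genes, and p-values were adjusted over all of them. An approximate SE was had by dividing the absolute log2 fold change by the root of its F value. The rule and the edgeR fit were tested on simulated data. Alternatives were DESeq2 1.42.0 (its size factors, or its Wald test), all genes unfiltered, a replicate block, each replicate number left out, the library whose number lies out of order left out and, added after the data were seen, 2 Agate libraries or any 1 library left out. For the rule they were other pseudocounts than 1 and CPM minimums than 2. Intervals and floors cover counting error only.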

Additional observations from a re-analysis of the deposited data

Results flagged for a closer look

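For the mean level of the 80 genes and for the 10 leading genes, 46 sets of values were of a size to be examined for a library standing apart. In all, 8 values did, each of a leading gene. For normally distributed values, chance alone sets 1 such value apart in about 1 in 20 sets. CPM pooled over nitrate levels need not be so distributed, and this rate is then only a rough guide.

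MsG0880047172.01 was at 0.237 CPM in 1 ineffective Agate library at 420 ppm, far below the others of that line. MsG0780039352.01 stood apart upwards at 169 CPM in ineffective Agate at 420 ppm, at 178 CPM in effective Saranac at 600 ppm and at 96.6 CPM in ineffective Saranac at 420 ppm. MsG0680035721.01 did so at 199.9 CPM in ineffective Agate and 956 CPM in ineffective Saranac, both at 420 ppm. In effective Saranac at 600 ppm, MsG0880044857.01 reached 7.61 CPM and MsG0680031977.01 reached 38 CPM in single libraries. These effective values lay within the range of the ineffective libraries of the same gene.

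For 3 named genes the CO2 response differed between 6 and 16 mM by the test of that difference itself, on the log2 scale by 7.13 in MsG0180004941.01, by 6.21 in MsG0780037258.01 and by -1.14 in MsG0480022716.01.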

How the results depend on the processing

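Of the counts of called genes and of genes kept by the rule, 73 values under alternatives were close to the value reported. Among these are counts of 0 that stayed at 0. The other 20 moved by more than 1.5 times, or to or from 0. Of the values of single named genes, 89 kept their call and 21 lost it. With the Wald test of DESeq2 23 of the 80 genes were called for cultivar (5074 of all 24386), 3 for 6 against 16 mM (462), 3 for 10 against 16 mM (329), 1 for 6 against 16 mM by class (142), 14 for CO2 by nitrate (1836) and 1 for CO2 by cultivar (145). The edgeR counts over all genes for these were 3906, 100, 25, 0, 890 and 0. With each replicate number left out, the count was 24 to 31 for CO2 and 8 to 12 for cultivar. For 10 against 16 mM it was 0, and for CO2 by nitrate 0 to 8. Over all genes, edgeR then called 8326 to 9366 for CO2 and 2264 to 2500 for cultivar, against 10291 and 3906 with all libraries. For 10 against 16 mM and CO2 by nitrate it called 0 to 4 and 0 to 719, against 25 and 890. Without replicate 4, edgeR called 0 of all genes for CO2 by nitrate. There, 13 of the 80 and 2752 of all 24720 genes had an unadjusted edgeR p under 0.05. The 2 Agate libraries at 10 mM and 420 ppm were left out by a choice made after seeing the data. Of the 80, 31 were then called for CO2, 17 for cultivar, 8 for CO2 by nitrate and 0 for 10 against 16 mM. Over all genes these counts were 10186, 3695, 1009 and 23. The cause was not tested.

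The rule kept 42 to 46 of the 80 genes with a replicate number left out, 39 without the 2 Agate libraries, and 53 to 80 with any 1 library left out, an alternative also added after seeing the data. The lowest, 53, came without effective Agate replicate 3 at 10 mM and 420 ppm and the next, 59, without ineffective Agate replicate 4 of the same conditions. In all 85 cases 25 genes were kept. It kept 65 and 58 with pseudocounts of 0.25 and 4, and 76 and 64 with minimums of 1 and 5 CPM.

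With the replicate number as a block, 31 of the 80 were called for CO2, 16 for cultivar, 6 for CO2 by nitrate and 1 for 10 against 16 mM. Over all genes these counts were 10141, 3799, 646 and 26. The numbers do not pair the libraries, since same-numbered libraries of other groups had correlations of -0.410 to 0.405 with a median of -0.0046, and 14 of 85 were nearest to their own number. Of the 80 genes, 4 had a group without a count. For MsG0280010934.01 and MsG0880044857.01, with 5 and 3 such groups, the edgeR p was over 0.97 in 7 and 6 of 8 contrasts. Their SE for CO2 was 1557 and 5169, so that contrast cannot tell a change from none in them. MsG0580030016.01 and MsG0780037258.01 had 1 such group each, and p was over 0.97 in 0 of 8 contrasts. Whether depth set these limits was not tested.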

Other observations

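For 1 Agate library at 10 mM and 420 ppm the labels name both classes, and it entered no comparison. It had 76 of the 80 genes with a count, a summed level of 1717 CPM and a mean level of -0.437. The ineffective libraries of these conditions had mean levels of 0.494, 0.0482 and -0.418, and summed levels of 5886, 3553 and 2702 CPM. The effective libraries had mean levels of -1.14, -1.04 and -0.132, and summed levels of 1116, 3461 and 3401 CPM.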
